A study of Mus musculus with 9 samples.

Results

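The RANK, RANKL and osteoprotegerin axis was examined by RNA-Seq in whole osteosarcomas that arose in engineered mice. Its 6 genes were found by their symbols among the 55367 genes of the deposited count table: Tnfsf11, which encodes RANKL, Tnfrsf11a, which encodes RANK, Tnfrsf11b, which encodes osteoprotegerin, the adaptor gene Traf6, and Csf1 with its receptor gene Csf1r as a companion pair. All 6 passed the filter on low counts, which left 15365 genes for testing. The 4 p53-driven tumors arose in Col2.3-Cre mice with a floxed Trp53 allele (fl/+), in which a collagen promoter fragment active in osteoblasts drives Cre. The 5 Myc-knockin tumors carried the same floxed p53 allele and Cre together with a Lox-Stop-Lox c-MycT58A allele, so Cre and fl/+ were shared by both groups and the Myc allele set them apart. The labels give neither the age nor the sex of the mice, and they number the tumors without saying that each came from a separate animal, so p-values measure the spread between these samples. The comparison asks how the signals that govern osteoclasts and macrophages differ between osteosarcomas with and without the Myc allele.

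RANKL is made by cells of the osteoblast lineage and, when it binds RANK on osteoclast precursors, drives their fusion into bone-resorbing osteoclasts through the adaptor TRAF6, NF-kB and NFATc1. Osteoprotegerin is a soluble decoy receptor that takes up RANKL before it reaches RANK. CSF1 acts through its receptor CSF1R to keep macrophages and osteoclast precursors alive and to raise their RANK, and osteosarcoma is a bone-forming tumor in which osteoblast-like tumor cells and resorbing osteoclasts share the tissue.

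Several libraries stood apart before any gene was compared. Total counts ran from 2716322 to 17073285 per tumor, so a level of 3 counts corresponded to 0.114 CPM in M624 and to 2.39 CPM in M9, where CPM is the count scaled by the library size and the TMM factor. Genes with a numbered Gm symbol and over 0.5% of the counts of any tumor, 4 in all, are called satellite genes here. Whether they are satellite repeats was not tested. They took 22.9% to 79.9% of the counts in F187, M351, M408 and M9 and at most 0.0238% in the other 5 tumors. M624 and M664 held the small nuclear RNA Rn7sk at 5.33 and 9.32 CPM against at least 8860 CPM elsewhere (CPM here without the satellite genes). Every Myc-knockin library was of 1 of these kinds and F325, F331 and F368 of neither, so genotype and library kind cannot be told apart beyond F187, also where libraries are left out below. The table's columns are named by tumor. F names were taken as p53 driven and M names as Myc knockin, of which M351, M9 and M664 rest on the letter alone. Myc itself read 144 to 1040 CPM in the Myc-knockin tumors and 43.5 to 67.1 CPM in the p53-driven group, a log2 fold change of 3.41 (SE 0.594; edgeR adjusted p = 0.0217), in the direction of the labels. Osteoblast marker genes were detected in all 9 tumors, with at most 2 of the 14 markers at 0 in any of them. Their summed level was 3620 to 41600 CPM in the Myc-knockin tumors against 66200 to 142000 CPM in the p53-driven tumors, but Col1a1 and Col1a2 made up 60.1% to 97.1% of it, and without these collagen genes the sums overlapped, at 361 to 5690 CPM against 4040 to 8540 CPM.

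Both receptors and the CSF1 ligand were lower in the Myc-knockin tumors, and the RANK ligand, its decoy and its adaptor did not pass the test. Csf1 averaged 249 ± 80.6 CPM (SD, n = 4) in the p53-driven group and 31.4 ± 14.4 CPM (SD, n = 5) in the Myc-knockin group, an 8-fold lower level in the fit. Tnfrsf11a was 7.28-fold and Csf1r 5.54-fold lower. A gene was called at an edgeR adjusted p under 0.05, taken over all 15365 tested genes, and a fold change over 1.5. By this rule 3 of the 6 genes were called, all 3 lower in the Myc-knockin tumors, where 5.27% of all tested genes were called in either direction and 3.00% were called lower. The same 3 genes were those whose groups did not overlap, which held for 13.0% of all tested genes. The median log2 fold change, Myc knockin over p53 driven throughout, was -2.05 over the 6 genes and 0.14 over all tested genes. Lower Csf1, from the RNA-Seq of these tumors, and lower Csf1r had been reported by the study, so these 2 calls were known beforehand. Of the other genes of the axis only Tnfrsf11a was called. The calls depended on the p53-driven tumors F325, F331 and F368. Without any 1 of these, 0 of the 6 genes were called, at adjusted p values between 0.0619 and 0.0918 for the 3 genes and with log2 fold changes between -3.15 and -2.16, and only 8, 6 and 5 genes of the whole table were called.

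**Figure D1:**
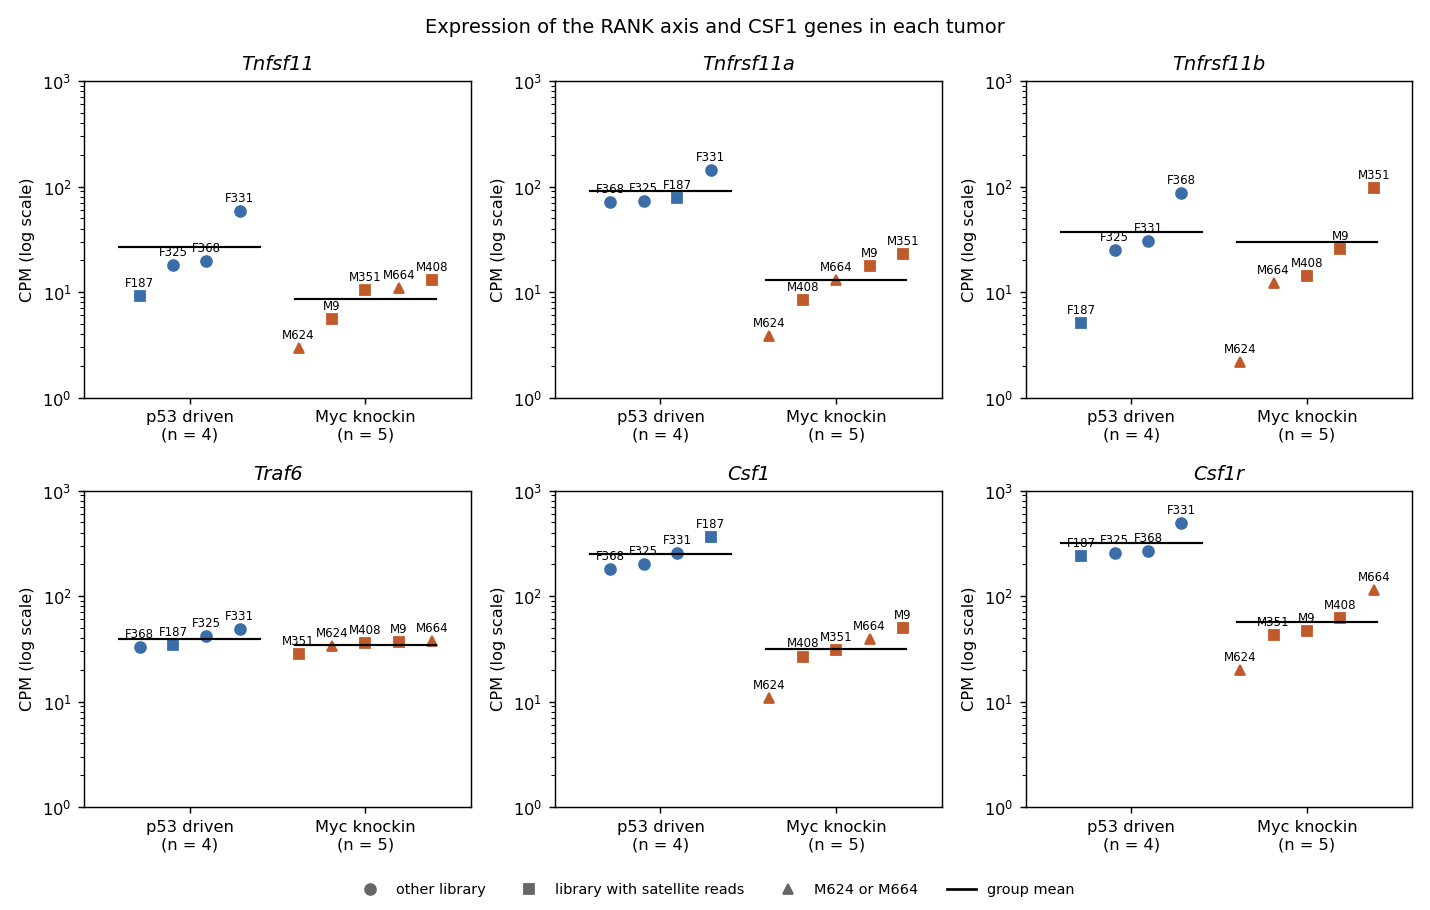
CPM of the 6 genes in each of the 9 tumors on a log scale, with p53-driven tumors in blue, Myc-knockin tumors in orange, squares for the 4 libraries with many satellite reads, triangles for M624 and M664, and a line at each group mean. Tnfrsf11a, Csf1 and Csf1r separate the groups without overlap, Traf6 lies between 28.3 and 48.4 CPM in all tumors, and Tnfrsf11b spans 2.17 to 96.0 CPM within the Myc-knockin group.

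Tnfsf11 (ENSMUSG00000022015), the gene of RANKL, lies on the minus strand of chromosome 14 at 78277445 to 78308043 in mm10. It read 9.08 CPM in F187, 18 in F325, 59.0 in F331 and 19.7 in F368 among the p53-driven tumors, and 10.5 CPM in M351, 13.0 in M408, 5.58 in M9, 2.97 in M624 and 10.8 in M664 among the Myc-knockin tumors. F331 stood far above the other tumors and M624 was the lowest, while F187 fell within the range of the Myc-knockin tumors. The group means were 8.56 ± 4.14 CPM (SD, n = 5) and 26.5 ± 22.2 CPM (SD, n = 4), with a log2 fold change of -1.63 (SE 0.569, 95% interval -2.88 to -0.38). The edgeR adjusted p was 0.101, over the threshold, and it stayed over it in every alternative fit, at 0.0627 to 0.272, and with each tumor left out, at 0.083 to 0.379. The unadjusted p was 0.015 and the interval lies below 0, so a difference could be neither called across all genes nor set aside. Its counts were few in the shallow libraries, with 7 in M9 and 17 in M351. The background expected from chemosensory receptor genes, taken as not expressed in bone, came to 39.7% and 14.8% of these counts. That this background is genomic was assumed and not tested.

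Tnfrsf11a (ENSMUSG00000026321), the gene of RANK, lies on the plus strand of chromosome 1 at 105780718 to 105847981. Its level was 77.8 CPM in F187, 72.3 in F325, 144 in F331 and 71.2 in F368, against 22.8 CPM in M351, 8.42 in M408, 17.5 in M9, 3.85 in M624 and 13.0 in M664. Every Myc-knockin tumor was below every p53-driven tumor, the highest of the former reaching 22.8 CPM and the lowest of the latter 71.2 CPM. The log2 fold change was -2.86 (SE 0.477, 95% interval -3.91 to -1.82; edgeR adjusted p = 0.020). The expected background came to 33.9% of the 22 counts in M9 and 18.2% of the 37 counts in M351. With the background subtracted from all libraries the log2 fold change was -2.90. It was -2.49 without M624 and M664 and -3.49 without the 4 libraries with satellite reads, called in both.

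Tnfrsf11b (ENSMUSG00000063727), the gene of osteoprotegerin, lies on the minus strand of chromosome 15 at 54250619 to 54278484. It was the most variable of the 6 genes within groups, at 5.13 CPM in F187, 25.0 in F325, 30.6 in F331 and 87.5 in F368, and at 96.0 CPM in M351, 14.1 in M408, 25.5 in M9, 2.17 in M624 and 12.3 in M664. The highest and the lowest of the 9 tumors were both Myc knockin, and the groups overlapped throughout. Means of 30 ± 37.8 CPM (SD, n = 5) and 37.1 ± 35.4 CPM (SD, n = 4) gave a log2 fold change of -0.36 (SE 0.930; edgeR adjusted p = 0.838), with a 95% interval from -2.40 to 1.68 that holds large differences in either direction. The sign turned with the tumors used. It was 0.45 without F368 and -2.68 without the 4 libraries with satellite reads, where adjusted p was 0.0734 within a range of 0.0734 to 0.972 over the alternative fits.

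Traf6 (ENSMUSG00000027164), whose protein links RANK to NF-kB and MAP kinases, lies on the plus strand of chromosome 2 at 101678429 to 101701669. It was the steadiest of the 6 genes, from 32.8 to 48.4 CPM (median 38.3) in p53-driven and from 28.3 to 37.3 CPM (median 35.5) in Myc-knockin tumors. Its log2 fold change was -0.20 (SE 0.231; edgeR adjusted p = 0.610), and its 95% interval of -0.71 to 0.31 does not reach the interval of the RANK gene.

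Csf1 (ENSMUSG00000014599), the gene of the macrophage growth factor, lies on the minus strand of chromosome 3 at 107741048 to 107760469. It read 361 CPM in F187, 201 in F325, 253 in F331 and 180 in F368, and 30.8 CPM in M351, 26.7 in M408, 49.4 in M9, 10.9 in M624 and 39.2 in M664. The lowest p53-driven tumor, F368, was well above the highest Myc-knockin tumor, M9, and M624 was again at the bottom. The log2 fold change of -3.0 (SE 0.421, 95% interval -3.93 to -2.08; edgeR adjusted p = 0.0148) ranked 18 among all tested genes by p. It was -2.77 without M624 and M664, -3.05 without the 4 libraries with satellite reads and -2.92 with the background subtracted, called in all 3.

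Csf1r (ENSMUSG00000024621), the receptor of CSF1 and of interleukin 34, lies on the plus strand of chromosome 18 at 61100598 to 61132149. It read 241 CPM in F187, 257 in F325, 495 in F331 and 269 in F368, against 42.5 CPM in M351, 61.4 in M408, 47.0 in M9, 19.8 in M624 and 113 in M664. The groups did not overlap, and M664 came closest to the p53-driven tumors. The fitted log2 difference was -2.47 (SE 0.467, 95% interval -3.50 to -1.44; edgeR adjusted p = 0.0243). Without the 4 libraries with satellite reads it was -2.33 at an adjusted p of 0.0717, and under scaling by library size alone -2.50 at 0.108, within a range of 4.07e-05 to 0.108 over the alternative fits. Of the exon bases 873, or 15.12%, are shared with Hmgxb3 on the opposite strand, which held 22 to 1455 counts, and the strand setting of the counting is not stated, so part of the reads of either gene could have been counted for the other.

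**Figure D2:**
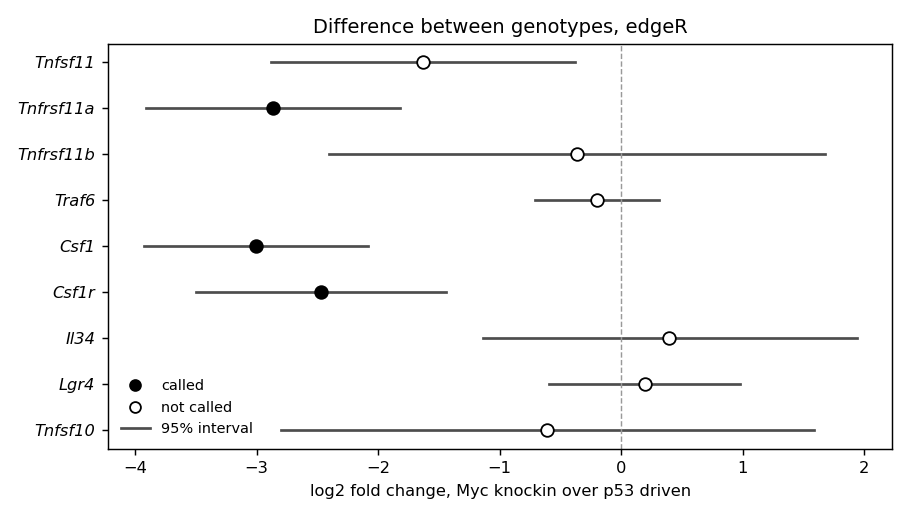
Log2 fold change of Myc-knockin over p53-driven tumors with an approximate 95% interval derived from the edgeR test. The 6 genes and 3 further ligands or receptors of the axis are shown, with called genes as filled points. Csf1, Tnfrsf11a and Csf1r lie between -3.0 and -2.47, and the interval of Tnfrsf11b runs from -2.40 to 1.68.

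A short stretch of the Csf1 transcript is shown because the study examined 2 microRNAs of the cluster that Mir17hg hosts as regulators of this gene. Mir17hg, named here after its values were seen, read 7.17 to 18.9 CPM in the Myc-knockin tumors and 0.79 to 5.88 CPM in the p53-driven group, a log2 fold change of 2.36 (SE 0.555; edgeR adjusted p = 0.0392). The 7.17 CPM of M9 were 9 counts, 48.9% of them expected background, and with the background subtracted M9 was at 3.66 CPM, below F331 at 5.87 CPM, so the groups then overlapped. The microRNAs themselves were not measured in these libraries. Their mature sequences in RefSeq (GRCm38.p6, chromosome 14, plus strand) share the seed, bases 2 to 8, given in capitals.
mmu-miR-17-5p: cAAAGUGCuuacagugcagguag
mmu-miR-20a-5p: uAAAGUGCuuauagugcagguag
The complement of this seed, GCACTTT, was searched for on the sense strand of the annotated 3' UTRs of the 6 genes. It occurred once in Csf1, at positions 1059 to 1065 of the 2111-base 3' UTR of 2 annotated transcripts, and in neither of the shorter 3' UTRs annotated for the gene, of 259 and 145 bases. It also occurred once in Tnfsf11, at positions 634 to 640 of its 1131-base 3' UTR. The 30 bases around each match are given with the match in capitals, on the minus strand of mm10 at chr3:107742086-107742115 for Csf1 and chr14:78277928-78277957 for Tnfsf11.
Csf1: aggtttctgcatcttGCACTTTgacattcc
Tnfsf11: atgtatttaactggtGCACTTTgtaattcc
There was no match in the annotated 3' UTRs of Traf6, Csf1r, Tnfrsf11a and Tnfrsf11b. Of all 21020 genes with an annotated 3' UTR, 11.8% held the 7 letters in their longest one, and so did 17.0% of 1383 genes with a 3' UTR within 10% of the length of that of Csf1 and 10.2% of 1386 genes for that of Tnfsf11. The study had already named the Csf1 site, at 1059 to 1065, from a TargetScan prediction. By quantitative PCR it found both microRNAs higher in Myc-knockin than in p53-driven tumors. In its cell lines both fell after Myc knockdown or MYC degradation. In the study's cell lines, inhibitors of the 2 microRNAs raised Csf1 expression and mimics lowered it. The part of these microRNAs in the levels of the 6 genes was not tested here.

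Levels of different genes were compared per kilobase of exon, since longer transcripts give more reads. In the p53-driven tumors Csf1r led with a mean of 54.6 ± 20.8 CPM per kb (SD, n = 4), followed by Csf1 at 47.1 ± 15.3, Tnfrsf11a at 15.3 ± 5.88, Tnfrsf11b at 13.2 ± 12.6, Tnfsf11 at 11.8 ± 9.92 and Traf6 at 5.00 ± 0.916. The CSF1 pair overlapped each other and lay above the other 4 genes, Csf1 reaching down to 34.1 and Tnfrsf11b up to 31.1 CPM per kb. Among the lower 4 genes only Traf6 and Tnfrsf11a were apart. In the Myc-knockin tumors the order was Tnfrsf11b at 10.7 ± 13.4 CPM per kb (SD, n = 5), Csf1r at 9.83 ± 6.04, Csf1 at 5.95 ± 2.72, Traf6 at 4.35 ± 0.457, Tnfsf11 at 3.83 ± 1.85 and Tnfrsf11a at 2.19 ± 1.24, and every neighbour in this order overlapped the next. By means alone the RANK gene had the third place in the former and the last in the latter, and single tumors departed from this order. Traf6, the lowest of the 6 genes by its mean in the p53-driven tumors, was above Tnfrsf11a in 4 of the 5 Myc-knockin tumors.

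**Figure D3:**
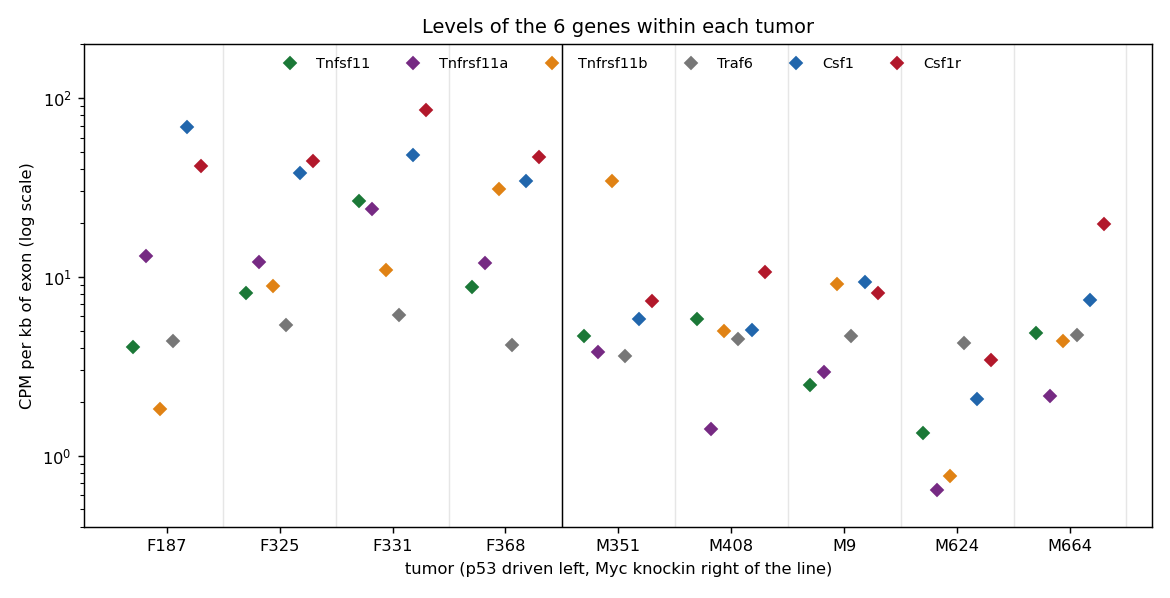
CPM per kb of exon of the 6 genes side by side within each tumor on a log scale, with p53-driven tumors left and Myc-knockin tumors right of the vertical line. In each p53-driven tumor Csf1 and Csf1r are the highest, at 34.1 to 85.8 CPM per kb, and in M351 Tnfrsf11b is the highest, at 34.1 CPM per kb.

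No difference between the genotypes was detected in the balance of ligand and decoy. RANKL transcript per osteoprotegerin transcript, from CPM per kb, was 2.23 in F187, 0.911 in F325, 2.43 in F331 and 0.284 in F368, and 0.137 in M351, 1.16 in M408, 0.276 in M9, 1.72 in M624 and 1.1 in M664. Ligand exceeded decoy in 2 of the 4 p53-driven and 3 of the 5 Myc-knockin tumors, and F368, M351 and M9 had 3.53, 7.28 and 3.63 osteoprotegerin transcripts per RANKL transcript. The log2 ratio of Tnfsf11 to Tnfrsf11b in CPM was -1.04 ± 1.54 (SD, n = 5) against -0.22 ± 1.43 (SD, n = 4), a difference of -0.83 with a two-sided exact permutation p of 0.349, where the smallest p that all arrangements of the 9 tumors allow is 0.0159. Without the 4 libraries with satellite reads the difference was 0.68, with 3 against 2 tumors, where no exact permutation p under 0.2 can be had. The difference kept its sign with each tumor left out in turn.

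**Figure D4:**
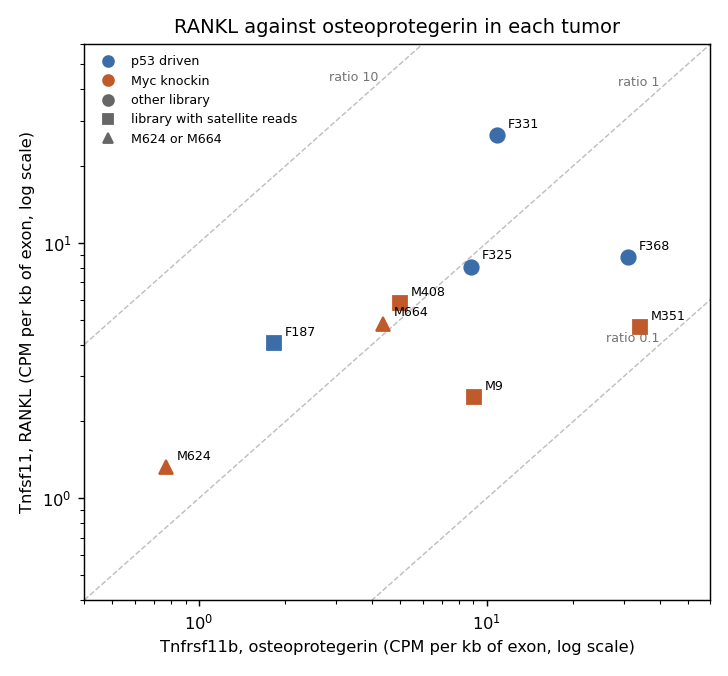
Tnfsf11 against Tnfrsf11b in CPM per kb of exon in each tumor, both axes on a log scale, with dashed lines of equal ratio, p53-driven tumors in blue, Myc-knockin tumors in orange and marker shapes as for the levels by tumor. Tumors of both groups lie on both sides of the ratio of 1, from M351 at 0.137 to F331 at 2.43.

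Ligands and receptors were set against each other in the same way. RANKL transcript per RANK transcript was 0.313 to 1.1 in the p53-driven tumors and 0.852 to 4.13 in the Myc-knockin tumors, with only M9 and F331 crossing, and this ratio was not tested. Transcripts of Csf1 per Csf1r overlapped between the groups, at 0.558 to 1.64 and 0.379 to 1.15. RANK per CSF1R transcript was nearly constant over the 4 p53-driven tumors, at 0.255 to 0.312, and ran from 0.111 in M664 to 0.517 in M351 among the Myc-knockin tumors.

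Over the 9 tumors log2 CPM of Tnfrsf11a had a Pearson r of 0.96 with Csf1 and 0.92 with Csf1r, and Csf1 had 0.93 with Csf1r. These values hold the difference between the groups, and after subtraction of the group means they were 0.76, 0.59 and 0.61. Tnfsf11 had an r of 0.84 with Csf1r, and 0.78 after subtraction, the highest of the 15 pairs then. These are descriptions over 9 points that share their library depth and scaling, and the likeness below also holds the difference between the groups. Of 9539 genes with a mean of at least 10 CPM, those most like Tnfrsf11a were Kbtbd11 (r = 0.99), Nfam1 (0.98) and Sec24d (0.98), those most like Csf1 were Antxr1 (0.98), Enah (0.98) and Kbtbd11 (0.98), and those most like Csf1r were Tgfbr2 (0.99), the osteoclast transcription regulator Jdp2 (0.98) and Dap (0.98). For the 3 genes that were not called they were Cd84 (0.96), Dgkh (0.94) and Stat5b (0.94) for Tnfsf11, 5530601H04Rik (0.90), Cipc (0.90) and Supt3 (0.89) for Tnfrsf11b, and Tmem242 (0.92), Plekhb2 (0.90) and Psmd10 (0.88) for Traf6.

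Other partners of the axis did not pass the test. Il34, the second ligand of CSF1R, was near the limit of detection, at 0.389 to 2.94 CPM in the p53-driven and 1.21 to 3.66 CPM in the Myc-knockin tumors (log2 fold change 0.40, 95% interval -1.14 to 1.94; edgeR adjusted p = 0.753). Lgr4, a further receptor of RANKL, had 30.6 to 51.0 CPM and 21.0 to 66.7 CPM (log2 fold change 0.20, 95% interval -0.59 to 0.98; edgeR adjusted p = 0.765). Tnfsf10, which encodes TRAIL and is also bound by osteoprotegerin, had 5.47 to 8.74 CPM and 0 to 9.56 CPM (log2 fold change -0.61, 95% interval -2.80 to 1.59; edgeR adjusted p = 0.734), with no count in M624, where 3 counts would be 0.114 CPM.

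Among the genes below RANK, 2 of 32 signalling genes, 5 of 16 transcription regulators and 12 of 19 osteoclast effector genes were called, all lower. The 2 of RANK signalling were a share of 6.25% against the 5.27% of all genes, with a median log2 fold change of -0.43. They were Src, the kinase that osteoclasts need for their ruffled border, at -1.90, and Tnfaip3, which encodes the NF-kB inhibitor A20, at -2.04. The more highly expressed genes that did not pass were Sqstm1 (-0.62; edgeR adjusted p = 0.337) and Tab2 (-1.11; edgeR adjusted p = 0.0737). The 5 transcription regulators were 31.2% of those tested, 6 of the 16 lay above 0, and the median was -0.73. Nfatc1, the regulator that RANK signalling induces, averaged 40.3 ± 21.2 CPM (SD, n = 5) against 190 ± 68.1 CPM (SD, n = 4), a log2 fold change of -2.23 (SE 0.415; edgeR adjusted p = 0.0229). Jdp2 was at -2.51, Prdm1, which encodes the repressor BLIMP1, at -2.34, Fosl2 at -1.71 and Mitf, named after its values were seen, at -1.63. Jun, a subunit of AP-1, was not called, at 0.14.

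The osteoclast effector genes had the lowest median of the lists. All 19 had a log2 fold change below 0, the median was -2.76, and the 12 called were 63.2% of them against 5.27% of all genes tested. Dcstamp, needed for osteoclast fusion, averaged 1.91 ± 1.92 CPM (SD, n = 5) against 49.8 ± 50.3 CPM (SD, n = 4), and its log2 fold change was -5.02. Its Myc-knockin counts were near background in part, with 0 counts in M408, 3 in M351 (99.8% expected background) and 6 in M9 (55.2%). Oscar, a costimulatory receptor of osteoclasts, was at -4.68 and Calcr, the calcitonin receptor, at -4.44, with background at 115% of the 2 counts of Oscar in M9 and at 54.9% and 69.5% of the counts of Calcr in M351 and M9, so the sizes of these 3 changes are imprecise. Atp6v0d2, a proton pump subunit, was at -4.21, with 8.76 to 22.8 CPM against 121 to 533 CPM. Acp5 (-3.71; edgeR adjusted p = 0.0576) and Mmp9 (-2.92; edgeR adjusted p = 0.0902) did not pass, and M664 held 481 and 1630 CPM of them, above the lowest p53-driven tumor in both. M664 also had the highest Csf1r of the Myc-knockin tumors. The counts of called genes fell without F325, F331 or F368, to 1 effector gene and 0 genes of either other list in each case. In bulk tumors, fewer osteoclasts and less RNA per osteoclast cannot be told apart.

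On the CSF1R side, 4 of 25 tested genes were called, all lower, a share of 16% against 5.27% of all genes tested, with a median log2 fold change of -0.95. Tyrobp, the adaptor of activating receptors in myeloid cells, was at -2.13, Pik3cg, a PI3 kinase of leukocytes, at -1.63, and Sos1, an exchange factor for Ras, at -1.27. Rac2, a GTPase of blood cells named after its values were seen, was at -2.15 with overlapping groups. Akt1 (0.18), expressed in most cells, was not called. Without F325, F331 or F368, 0 of these genes were called, and 0 were also called without the satellite genes or under scaling by library size alone.

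Hormone and cytokine receptors, cytokines, growth factors, Wnt components and the gene Ebf2, which set the level of RANKL and osteoprotegerin, were listed as upstream. Of the 19 tested genes of this list edgeR called 0, with 4 at an unadjusted p under 0.05, while DESeq2 called 4 and limma-voom 2. Their median log2 fold change was 0.05. Without the 4 libraries with satellite reads edgeR called 5 of 18 at a median of -0.66. In that fit 4595 of all 16495 genes were called, and the median log2 fold change of all genes was -0.003. Lifr, a receptor subunit of the interleukin 6 family, had 14.4 to 457 CPM in the Myc-knockin and 617 to 2030 CPM in the p53-driven tumors without overlap (-2.49; edgeR adjusted p = 0.0741), and Ctnnb1, which encodes beta-catenin, was at 0.13.

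The family of RANKL and RANK gave a background for both. Of 17 other TNF ligand genes 6 could be tested and edgeR called 0 of them, with 1 at an unadjusted p under 0.05, and DESeq2 and limma-voom also called 0. Eda was at 0.70 and Tnfsf10 at -0.61. Of 26 other TNF receptor genes 19 could be tested and 3 were called, 15.8% against 5.27% of all genes tested, and 1 was called without M624 and M664. Tnfrsf26 (-2.55) and Tnfrsf19 (-1.91, named after its values were seen, with overlapping groups) were lower, and the TRAIL receptor gene Tnfrsf10b was higher, at 1.48 (19.3 ± 7.54 CPM, SD, n = 5, against 6.99 ± 1.78 CPM, SD, n = 4). Tnfrsf1a (-0.82) and Ltbr (-0.55) were not called. The RANK gene, at -2.86, was below all 19 of these receptors.

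**Figure D5:**
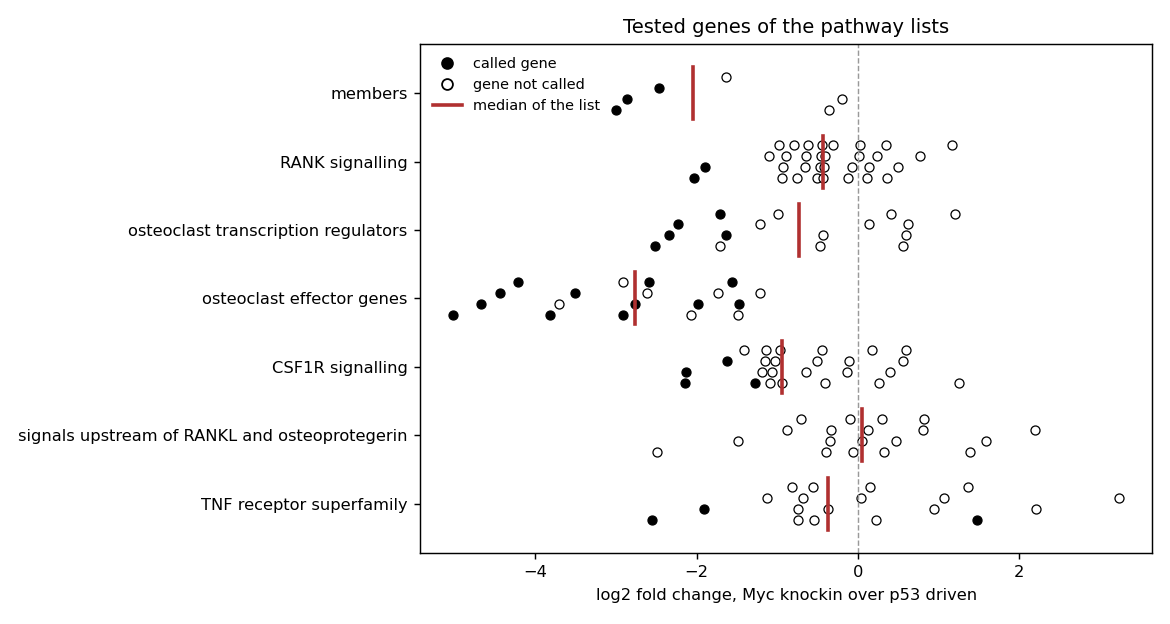
Log2 fold change of Myc-knockin over p53-driven tumors for each tested gene of the 6 genes and of 6 pathway lists, with called genes filled and the median of each list as a red line. The medians run from -2.76 for the osteoclast effector genes to 0.05 for the signals upstream of RANKL, and all 19 effector genes lie below 0.

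Markers of the cells that express these genes moved to different extents. The summed osteoblast markers overlapped between groups once the collagen genes Col1a1 and Col1a2 were set aside, and these were not called (edgeR adjusted p = 0.0682 and 0.0817). Of the 14 markers 13 lay below 0, at a median log2 fold change of -1.08 against 0.14 over all tested genes. Between groups 8 overlapped and 6 were lower without overlap, where 13.0% of all tested genes did not overlap in either direction. The osteocalcin genes Bglap (-5.34) and Bglap2 (-5.42) were the 2 called, 14.3% of the markers against 5.27% of all genes tested. Mepe was at 3.27 without being called. The 13 macrophage markers summed to 356 to 1080 CPM in the Myc-knockin tumors and to 617 to 1160 CPM in the p53-driven tumors, which overlap. None of them was at 0 in any tumor. Cd68 (-2.27) alone was called, a share of 7.69% against 5.27% of all genes tested. Of the 13 markers 8 lay below 0 and 5 above, at a median log2 fold change of -0.39. Cd68, Bglap, Bglap2, Mepe and the collagen genes were named after their values were seen. The osteoclast effector genes summed to 343 to 3150 CPM against 3340 to 16400 CPM, without overlap, though M664 at 3150 CPM was close to F368 at 3340 CPM. Mmp9, Ctsk and Acp5 had the highest means in this sum, at 3220, 1940 and 1710 CPM in the p53-driven tumors. Mmp9 and Acp5 overlapped between the groups and were not called. T cell, B cell, skeletal muscle, red cell, endothelial and chondrocyte markers overlapped between the groups in their summed level, and edgeR called 0 of their 27 tested genes, with 5 at an unadjusted p under 0.05, while DESeq2 called 3 and limma-voom 0. Without the 4 libraries with satellite reads edgeR called 6 of 33 of them, at a median of -0.59, where 4595 of all 16495 genes were called. The part of osteoblast and osteoclast content in the lower Tnfrsf11a, Csf1 and Csf1r was not tested.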

How the data were processed

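Whole-tumor RNA from 4 p53-driven and 5 Myc-knockin mouse osteosarcomas was sequenced by the authors. They trimmed paired reads with Trim Galore, mapped them to mm10 with STAR and counted them per gene with featureCounts, and the deposited values are raw counts. The strand setting and the handling of reads with several positions are not given in the sources used here. No label gives a column's name. Of the 9 names, 6 stand under their genotype in the paper's supporting data, and 3 were placed by the letter M.

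Genes were tested in R 4.3.3 with edgeR 4.0.16 (TMM, filterByExpr with a minimum count of 10, glmQLFit and glmQLFTest) with Benjamini-Hochberg adjustment over 15365 genes. Log2 CPM used a prior count of 2. The log2 ratio of Tnfsf11 to Tnfrsf11b was compared by an exact permutation test over samples. Exon lengths, positions and 3' UTRs are from GENCODE for the same genome, which holds 55034 of the 55367 gene identifiers, and microRNA sequences are from RefSeq. Background, taken to be genomic, was estimated from 1822 chemosensory receptor genes per kilobase of exon. An even rate over exons was assumed, and neither this rate nor the origin of the reads was tested. Floors of 3 counts cover counting error only. The edgeR step was tested on simulated counts. Alternatives were upper-quartile scaling, library size alone, other count filters, no minimum fold change, DESeq2 1.42.0, limma-voom (limma 3.58.1) with quality weights, removal of satellite genes, subtraction of the background, a prior count of 0.5 for the ratio, and omission of tumors.

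The 6 genes, the pathway lists and the tests were chosen with earlier results of these data known. The genes named are the 6 genes and their 3 other partners, up to 4 called genes per list with the largest change whose groups did not overlap and whose higher group had a mean of at least 5 CPM, the 2 most highly expressed genes per list that were not called, the 3 genes most like each of the 6 over the tumors, and Myc. Exceptions are marked in the text, and 2 genes that the rule names are not reported here.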

Additional observations from a re-analysis of the deposited data

Results flagged for a closer look

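Among the p53-driven tumors F331 stood apart in 2 of the 6 genes. Its Tnfrsf11a was 7.17 on the log2 CPM scale against 6.29 in the nearest tumor, a gap of 0.875 of the group's range, and its Csf1r was 8.95 against 8.07, a gap of 0.844, both beyond Dixon's 95% critical value for 4 tumors. Of 14 groups of values examined in this way, chance would flag about 1 in 20. Without F331 the log2 fold change was -2.55 for Tnfrsf11a (edgeR adjusted p = 0.0642) and -2.16 for Csf1r (0.0918), neither called. F331 had the highest summed osteoclast effector genes, at 16400 CPM where the other 3 of its group had 3340 to 8200 CPM. Its summed osteoclast transcription regulators were also the highest, at 1190 CPM against 689 to 839 CPM. Its summed macrophage markers, at 997 CPM, were below the 1160 CPM of F368. F331 also had the highest Tnfsf11, at 59.0 CPM, and the highest summed chondrocyte markers, at 2670 CPM where the other 3 of its group had 33.2 to 40.7 CPM. Of these 2670 CPM, 2570 were Col2a1 alone. The part of these in its levels was not tested.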

How the results depend on the processing

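Csf1, Tnfrsf11a and Csf1r were lower and Tnfsf11 and Traf6 below 0 in every alternative and with each tumor left out. Called genes of the 6 were 2 under library size alone and without the 4 libraries with satellite reads, and 3 in the other alternatives. Csf1r lost its call there, at -2.50 and -2.33. Tnfrsf11b turned to 0.33 under limma-voom, 0.31 without M624 and M664, 0.45 without F368 and 0.02 without M624, and the ligand to decoy difference to 0.68 without the satellite libraries. Library size alone called 136 genes, 0 of RANK signalling, 0 transcription regulators, 6 effector genes and 0 of CSF1R signalling. DESeq2 called 2241, 5 of RANK signalling and 8 of CSF1R signalling, limma-voom 1663 and 8 of CSF1R signalling, all genes with a count 494 and 2 of CSF1R signalling, at least 10 counts in every tumor 1316 (Tnfsf11 could not be fitted), and removal of satellite genes 487 and 0 of CSF1R signalling. Without M624 and M664, 1 gene of RANK signalling was called. Without the 4 satellite libraries 4595 of 16495 genes were called, with 8 of 33 of RANK signalling and 7 of 19 effector genes. Of called genes 57.0% were lower, against 35.5% under upper-quartile scaling, 40.3% with at least 10 counts in every tumor, 43.7% under DESeq2, 45.2% with the background subtracted and 43.5% without the 4 satellite libraries. The median log2 fold change of all genes fitted was 0.14, and 1.15 under DESeq2 and 0.97 for all genes with a count. The cause of these shifts was not tested.

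With 1 tumor left out, log2 fold changes ran from -1.93 to -0.87 for Tnfsf11, -3.15 to -2.55 for Tnfrsf11a, -1.53 to 0.45 for Tnfrsf11b, -0.31 to -0.08 for Traf6, -3.21 to -2.72 for Csf1 and -2.86 to -2.16 for Csf1r, and the ligand to decoy difference from -1.47 to -0.30. Called were 0 to 3 of the 6 genes, 5 to 1588 of all genes, 0 to 3 of RANK signalling, 0 to 6 transcription regulators, 1 to 16 effector genes and 0 to 5 of CSF1R signalling, the lowest of each without F325, F331 or F368, and the most genes without M9. Without F187, M351 and M624, 335, 371 and 375 genes and 0 of CSF1R signalling were called, with 7 effector genes without F187 or M351, and 2 of CSF1R signalling were called without M408. Of RANK signalling 1 gene was called without F187, M351, M624 or M664. No paired analysis was possible because the columns carry no replicate numbers.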
